A study of Mus musculus with 3 samples.

Results

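Isolated biotin-Utf1 peaks are the regions of the biotin-tagged Utf1 peak list that have no other peak of that list within 50 kb of either edge, on chromosomes 1 to 19. There are 3986 of them among 149498 autosomal biotin peaks, and 163114 peaks in both lists of the series together. The members were chosen by their positions in the biotin list alone. Their tags, widths and fold enrichments come from that same list and are given as a description, with no test. The endogenous Utf1 list does not enter the rule, but the rule was chosen with earlier results of these data known.

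Utf1 (undifferentiated embryonic cell transcription factor 1) binds chromatin in pluripotent cells, and its gene is a target of Oct4 and Sox2. In mouse embryonic stem cells it is known to occupy very many sites, among them genes that also carry Polycomb marks, and it is tightly held on chromatin. A peak in such a profile is a stretch where precipitated fragments pile up above background, and its summit is the position of the highest pile.

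The cells were KH2 mouse embryonic stem cells, an engineered line used to place transgenes at a defined locus, grown in 15% serum on feeder fibroblasts with LIF, and all groups share line and medium. The series has 3 samples with 1 library each. Biotin-tagged Utf1 was precipitated in one, endogenous Utf1 in another, and the last is a whole-cell extract, whose values were not analysed here. The biotin library carries the same Utf1 antibody label as the endogenous one, while the protocol describes streptavidin beads for the tagged protein. The sources used here do not give what drives the tagged Utf1, or whether the tagged cells were 1 clone. There are no replicates, so no p-value is given, and intervals are 95% intervals that cover counting error only. The lists hold tags in peaks only, so library depth is unknown. The isolated peaks hold 358535 tags over 4.63 Mb, which is 2.59% of the tags in autosomal biotin peaks, and all autosomal endogenous peaks together hold 208735 tags over 6.51 Mb. Coordinates are mm9 and 1-based. Neither sequences nor gene positions are printed, because no genome or annotation of mm9 was used here.

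Isolated peaks were ordinary in tags, slightly narrower and somewhat more enriched than the other autosomal biotin peaks. The median isolated peak had 56 tags (interquartile range 33 to 115), against 53 tags (34 to 108) for the other 145512 peaks. Its width was 1029 bp (824 to 1354), against 1087 bp (853 to 1613). The median listed fold enrichment, the authors' linear ratio over a background of unstated origin, was 4.91 (3.45 to 7.24) for isolated peaks and 4.14 (3.28 to 6.03) for the others. The tags were thus packed more densely, with a median of 54.3 tags per kb (40.4 to 85.8) in isolated peaks and 46.8 tags per kb (39.2 to 65.6) in the others.

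The 2 sets differed most in their upper ends. At least 100 tags per kb were reached by 692 isolated peaks, 17.4% (16.2 to 18.6), and by 8.94% (8.79 to 9.08) of the others. Very wide and very high peaks were rare among isolated peaks. Widths over 3000 bp occurred in 34 isolated peaks, 0.853% (0.591 to 1.19), and in 5.38% (5.27 to 5.50) of the others. More than 500 tags were listed for 7 isolated peaks, 0.176% (0.0706 to 0.361), and for 1.05% (0.996 to 1.10) of the others. A fold of 15 or more was listed for 1 isolated peak, 0.0251% (0.000635 to 0.140), and for 352 others, 0.242% (0.217 to 0.269). At the low end, 18.6% of isolated peaks (17.4 to 19.8) and 17.6% of the others (17.4 to 17.8) had up to 30 tags. Folds under 3 were less frequent among isolated peaks, 12.3% (11.3 to 13.3) against 14.1% (14.0 to 14.3), and widths of up to 1000 bp more frequent, 47.3% (45.8 to 48.9) against 41.6% (41.4 to 41.9). The summit lay in the central tercile of the peak's width in 83.9% of isolated peaks and in 75.02% of the others.

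**Figure D1:**
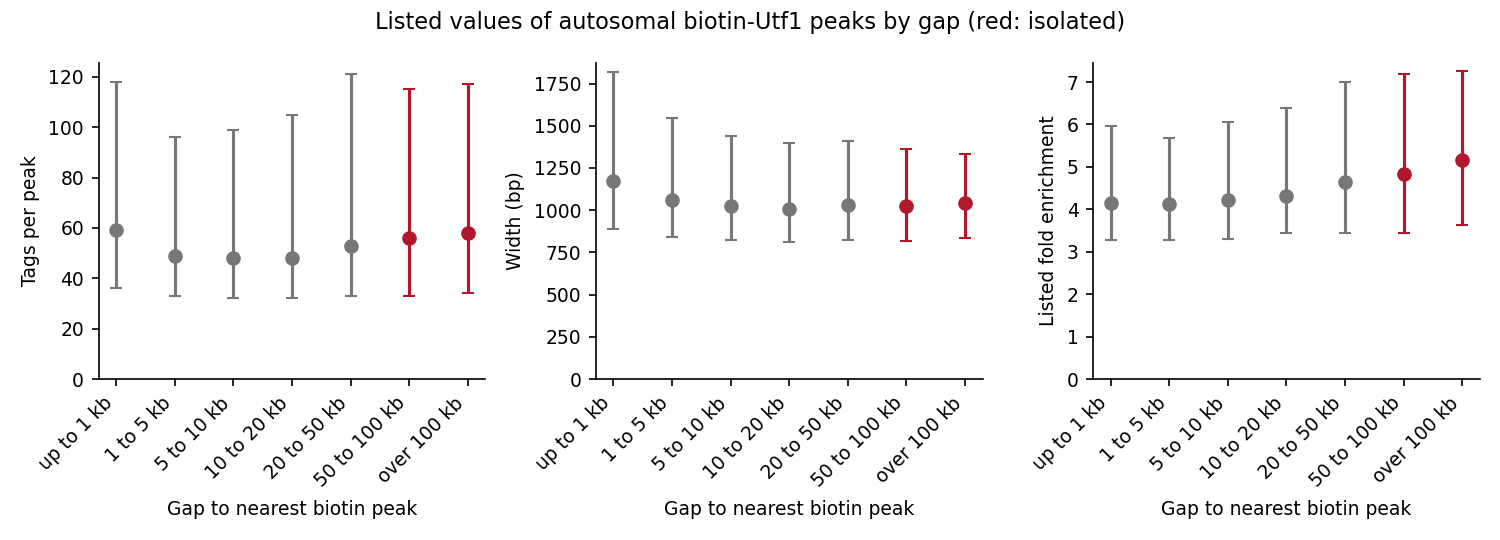
Tags, width in bp and listed fold enrichment of autosomal biotin-Utf1 peaks (y axes) by the gap to the nearest biotin peak (x axis); points are medians, bars are interquartile ranges, and red marks the isolated peaks. Median fold lies at 4.14 for gaps up to 1 kb and at 5.17 for gaps over 100 kb, while median tags lie between 48 and 59 in all classes.

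Set along the gap to the nearest biotin peak, the values did not break at 50 kb. Median fold was 4.14, 4.12, 4.22, 4.31 and 4.65 in the classes up to 1 kb, 1 to 5 kb, 5 to 10 kb, 10 to 20 kb and 20 to 50 kb. It was 4.83 for gaps of 50 to 100 kb and 5.17 for gaps over 100 kb. Median width was 1171 bp in the closest class and 1044 bp in the farthest. Just inside the threshold, with gaps of 50 to 55 kb, the 556 peaks had medians of 58 tags, 1024 bp and a fold of 5. Just outside it, with gaps of 45 to 50 kb, the 742 peaks had medians of 58 tags, 1035 bp and a fold of 5. The 3 members nearest the limit, on chromosomes 13, 16 and 7, had gaps of 50001 to 50030 bp, 24 to 31 tags and folds of 2.24 to 3.79. The 3 peaks nearest to it on the other side, on chromosomes 1 and 14, had gaps of 49995 to 49999 bp, 45 to 448 tags and folds of 4.65 to 9.58.

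Among the isolated peaks themselves, tags, width and fold went together, and none followed the distance to the neighbours. Across the 3986 peaks of this 1 library, Spearman's rho was 0.92 between tags and width, 0.86 between fold and tags and 0.71 between fold and width. Between the nearer gap and fold, tags and width it was 0.02, 0.01 and −0.000854 in that order. The median nearer gap was 73.3 kb. It exceeded 100 kb for 991 members and 200 kb for 97. For 7 members no further peak was listed on 1 side, up to the end of the chromosome.

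Isolated peaks lay in peak-poor stretches, and many lay next to each other. The rule leaves 50 kb on either side of a member empty, so it bears on both, and the counts are a description. A member's 1 Mb window held a median of 16 biotin peaks, itself included, against 118 in the windows of the other peaks. For 1258 members (31.6%) neither neighbouring peak was a member, for 1840 (46.2%) 1 neighbour was, and for 888 (22.3%) both were. Unbroken runs of 5 or more members numbered 100 and held 616 members. The longest runs had 11 members, on chromosome 19 at 19051926 to 20830062 and on chromosome 4 at 35728359 to 37418740. A dense neighbourhood was the exception: 104 members (2.61%) lay in windows with over 80 biotin peaks.

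Every autosome carried isolated peaks, with more per Mb on chromosomes poor in biotin peaks. Chromosome 3, sparsest in biotin peaks with 39.1 per Mb, had 326 members, 5.22% of its biotin peaks (4.68 to 5.80) and 2.04 per Mb of listed length. Chromosome 11, densest with 91.6 biotin peaks per Mb, had 133 members, 1.19% of its biotin peaks (0.999 to 1.41) and 1.09 per Mb. The number per Mb varied less than that of all biotin peaks, 1.87 times between the highest and lowest chromosome against 2.34 times. Chromosome 1 held the largest share of the members, 9.03% (8.16 to 9.96), with 6.15% of autosomal biotin peaks, and chromosome 19 the smallest, 2.51% (2.05 to 3.04), with 2.75%. Across the 19 autosomes, which share 1 library, Spearman's rho between isolated peaks and all biotin peaks per Mb was −0.81. Wide gaps are rarer where peaks are crowded, so the rule itself bears on this order. From chromosome to chromosome, the members' median tags ran from 45 to 72, their median folds from 4.31 to 5.78 and their median widths from 966 to 1102 bp.

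**Figure D2:**
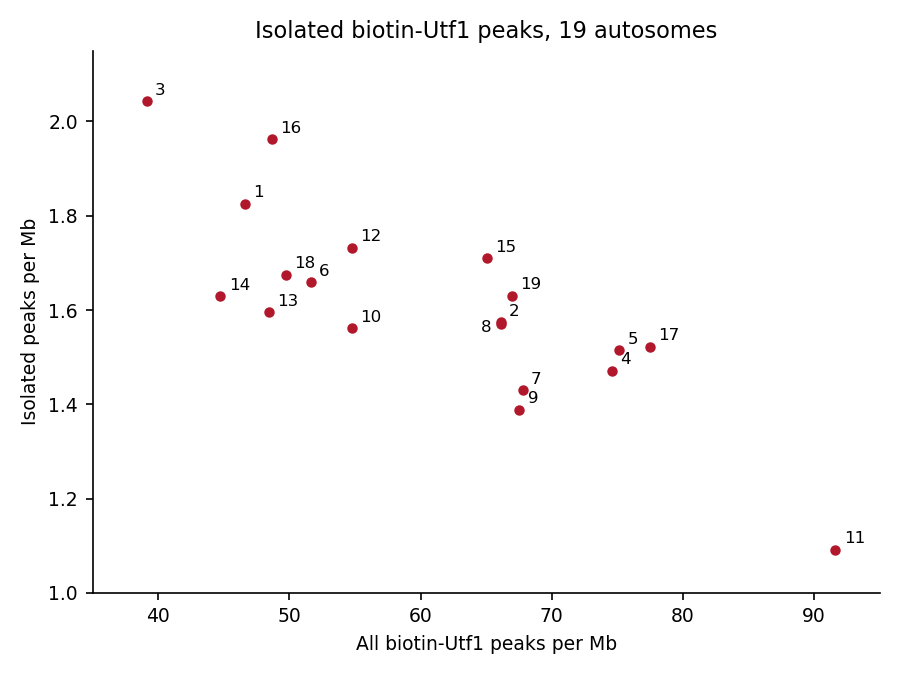
Isolated peaks per Mb (y axis) against all biotin-Utf1 peaks per Mb (x axis), 1 numbered point per autosome; both axes start above 0. Chromosome 3 stands highest at 2.04 isolated peaks per Mb and chromosome 11 lowest at 1.09.

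The isolated peaks with the highest folds were also rich in tags, and none of the 10 had an endogenous partner. The highest fold, 15.81, was listed on chromosome 11 at 61667084 to 61669463, with 322 tags over 2380 bp. Next in fold came 70771743 to 70772975 on chromosome 1, at 14.91 with 121 tags. It was followed by 24499842 to 24501439 on chromosome 9, at 14.68 with 224 tags, and by 7612422 to 7613902 on chromosome 3, at 14.4 with 253 tags. The 10 strongest had folds of 13.55 to 15.81, widths of 1233 to 2380 bp and 121 to 366 tags, and 0 of the 10 overlapped an endogenous peak. A count of 0 in 10 allows a share of up to 30%, so a lower share than among all members was not detectable.

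The most remote peaks included weak and well enriched ones. On chromosome 4, 27815059 to 27816238 had 108 tags and a fold of 9.14, with 413.4 kb of empty list to its left and 523.8 kb to its right. On chromosome 12, 42788313 to 42789040 had 29 tags and a fold of 3.45, with a nearer gap of 400.2 kb. A pair of the most remote peaks on chromosome 14 were each other's neighbours across 372.8 kb. The first, 94289473 to 94291186, had 163 tags and a fold of 8.48, and the second, 94663990 to 94664542, had 25 tags and a fold of 3.62. Over the 10 most remote peaks, tags ran from 25 to 250 and folds from 3.1 to 9.14. Among these 10 peaks, 1 overlapped an endogenous peak, on chromosome 10 at 15957346 to 15958149, where the endogenous peak had 13 tags.

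Over 1000 tags were listed for 3 isolated peaks, 0.0753% (0.0155 to 0.220), and for 0.0921% (0.0772 to 0.109) of the others. At this limit a difference was not detectable. On chromosome 8, 56197029 to 56209249 was 12221 bp wide, with 3094 tags but a fold of 3.11, and 1702 kb without a listed biotin peak followed on its right. On chromosome 15, 91736540 to 91741162 had 2484 tags, 537 per kb, and a fold of 6.9. On chromosome 3, 6296981 to 6307960 had 1379 tags over 10980 bp and a fold of 7.58. The endogenous list had a peak of 65 tags and a fold of 0.8 at the chromosome 8 region, a peak of 15 tags at the chromosome 3 region and none at the chromosome 15 region.

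Isolated peaks coincided with endogenous Utf1 peaks far more often than the other biotin peaks did, although the great majority had no endogenous partner. An overlap of at least 1 bp was found for 259 of 3986 isolated peaks, 6.50% (5.75 to 7.31), while 1.19% of all autosomal biotin peaks had one. Of the other biotin peaks, 1518 overlapped, 1.04% (0.992 to 1.10). The difference was 5.45 percentage points (4.73 to 6.26, Newcombe interval). From the endogenous side, 264 of 9612 autosomal peaks, 2.75% (2.43 to 3.09), lay on an isolated biotin peak. These 9612 peaks are far fewer than the 145512 other biotin peaks but more than the 3986 isolated ones. The length of the endogenous list thus limits the share that the other biotin peaks could reach.

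Shifted positions gave the level of the surroundings. By the rule, isolated peaks moved by up to 50 kb cannot reach another biotin peak, while other peaks can. The shift ratios of isolated and other peaks thus rest on unlike surroundings. Moved by 10 kb to the left and right, the isolated peaks overlapped an endogenous peak in 22 and 27 cases, and moved by 20 kb in 13 and 17. Moved by 50 kb they did so in 26 and 18 cases, and by 100 kb in 35 and 40. The listed positions, with 259, lay above all 8 shifts, at 10.5 times their mean of 24.75 (9.23 to 11.8, from the Poisson interval of the observed count). The other biotin peaks, moved in the same way, gave 686 to 841 overlaps, and their observed 1518 was 1.99 times the mean (1.89 to 2.09). On each of the 19 autosomes more isolated peaks overlapped than the mean of the shifts on that chromosome. Chromosome 6 had the most, 25 of 248 members, 10.1% (6.63 to 14.5), against a shift mean of 1.38. The lowest share was on chromosome 13, 6 of 192, 3.13% (1.16 to 6.68), against a shift mean of 1.13.

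The share overlapping an endogenous peak was higher in each wider gap class and, like the listed values, did not break at 50 kb. It was 0.464% (0.411 to 0.521) for gaps up to 1 kb, 0.630% (0.562 to 0.705) for 1 to 5 kb and 1.48% (1.29 to 1.68) for 5 to 10 kb. It was 2.60% (2.32 to 2.91) for 10 to 20 kb and 4.404% (3.99 to 4.84) for 20 to 50 kb. Isolated peaks continued this order, with 6.01% (5.19 to 6.92) for 50 to 100 kb and 7.97% (6.36 to 9.84) for over 100 kb. The means over the shifts lay between 0.453% and 0.843% in all 7 classes. Single shifts varied more, with 6 to 35 overlaps among the 2995 peaks with gaps of 50 to 100 kb. The ratio to the shift mean ran from 1.02 for gaps up to 1 kb to 5.22 for 20 to 50 kb. It was 8.94 for 50 to 100 kb and 17.1 (13.5 to 21.3) for over 100 kb. The last ratio rests on 79 overlaps against 1 to 8 after shifts.

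**Figure D3:**
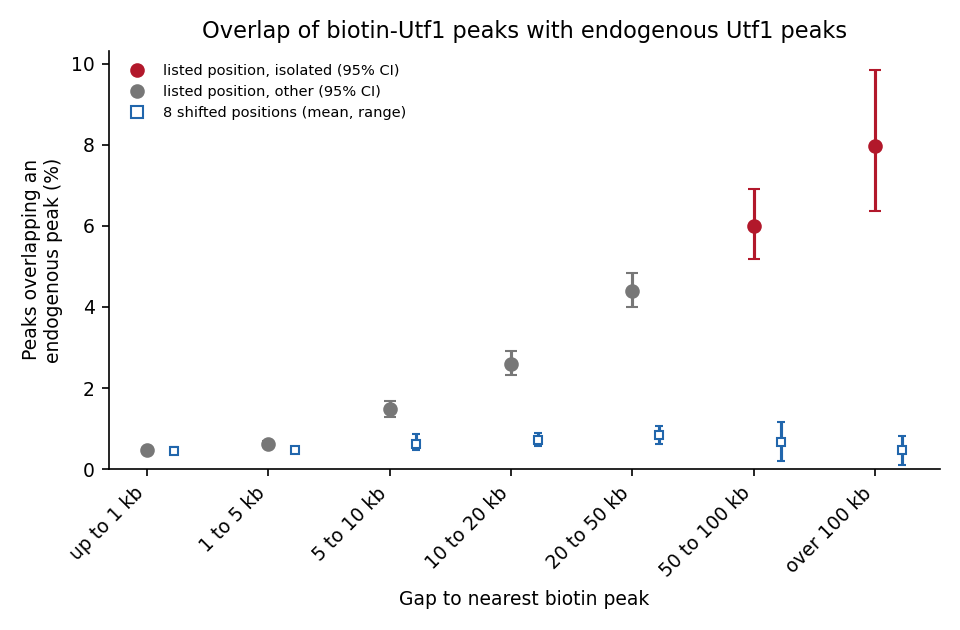
Share of biotin-Utf1 peaks overlapping an endogenous peak, in percent (y axis), by the gap to the nearest biotin peak (x axis); circles are listed positions with 95% Clopper-Pearson intervals, red for isolated peaks, and squares are the mean and range of 8 shifts. The circles reach 7.97% for gaps over 100 kb, while the shift means stay under 0.85%.

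Compared within peak-poor stretches, no difference between isolated and other peaks was detectable. Where a 1 Mb window held up to 10 biotin peaks, 74 of 892 isolated peaks overlapped an endogenous peak, 8.30% (6.57 to 10.3), and 105 of 1243 other peaks, 8.45% (6.96 to 10.1). The difference was −0.15 percentage points (−2.49 to 2.30). In windows with more biotin peaks, which held 3094 of the members, 5.98% of isolated peaks (5.17 to 6.87) overlapped. The other peaks of those denser windows were not counted apart, but nearly all other peaks lay there, since sparse windows held only 0.854% of them. All other peaks together, those of sparse windows included, overlapped in 1.04%. The lack of a detectable difference thus covers the sparse windows only, which held 892 of the 3986 members. The ratio to the shift mean was 17.4 (13.7 to 21.9) for the isolated peaks of the sparse windows and 10.4 (8.48 to 12.6) for the others there. Shifted positions overlapped in 0.476% of cases for the isolated peaks and in 0.815% for the others. The intervals of these ratios leave out the spread of the shifts, which gave 1 to 6 overlaps for the isolated peaks and 7 to 12 for the others. Here too the ratios rest on unlike surroundings.

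Among isolated peaks, the more enriched ones overlapped endogenous peaks more often. From the lowest to the highest quintile by listed fold, the shares were 3.88% (2.65 to 5.47), 3.14% (2.04 to 4.60), 5.02% (3.61 to 6.77), 10.2% (8.15 to 12.5) and 10.3% (8.27 to 12.6). The step lay between the middle quintile and the next, at a fold of about 5.91, and the shares of the 2 highest quintiles had overlapping intervals. By terciles, 141 of 1328 peaks overlapped in the highest and 50 of 1329 in the lowest, a difference of 6.86 percentage points (4.92 to 8.84). More enriched peaks are also wider, with a median of 1403 bp in the highest and 799 bp in the lowest tercile. Shifted positions of these terciles overlapped in 0.744% and 0.527% of cases. Counting summits within 1000 bp of each other, which does not depend on width, left a difference of 4.60 points (2.66 to 6.56). With summits within 250 bp it was 0.83 points (−0.12 to 1.83), and a difference was not detectable. The order was not particular to fold. Terciles by tags differed in overlap by 7.83 points (6.08 to 9.68), by tags per kb 8.06 (6.24 to 9.95) and by width 6.70 (4.93 to 8.55).

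**Figure D4:**
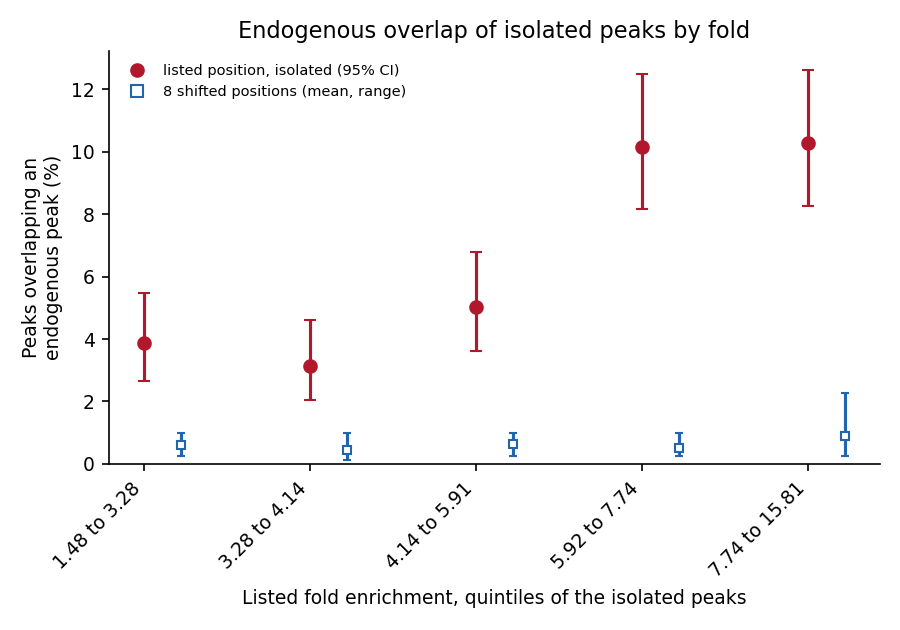
Share of isolated peaks overlapping an endogenous peak, in percent (y axis), in quintiles by listed fold enrichment (x axis, lowest to highest fold of each quintile); circles show listed positions with 95% Clopper-Pearson intervals and squares the mean and range of 8 shifts. The 2 highest quintiles stand at 10.2% and 10.3%, above the 3.14% to 5.02% of the other 3.

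The endogenous partners were weak peaks, as most of that list is. The 264 endogenous peaks on isolated biotin peaks had a median of 14 tags (interquartile range 13 to 16) and a median fold of 1.51 (1.29 to 1.76). Other autosomal endogenous peaks had a median of 14 tags (13 to 16) and a fold of 1.57 (1.37 to 1.76). The smallest listed count, 13 tags, was held by 43.9% of the partners (37.9 to 50.2) and by 40.9% of the others (40.0 to 42.0). A fold of 2 or more was rarer among the partners, 13 of 264 or 4.92% (2.65 to 8.27), than among the others, 10.2% (9.62 to 10.9). Across the 259 pairs, the biotin fold and the endogenous fold had a Spearman's rho of −0.17, and the tags one of 0.14. All pairs come from the same 2 libraries and are not replicates.

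First among the pairs by rank in both lists was 21343445 to 21345333 on chromosome 6, where the biotin list gave 238 tags (209 to 270, exact Poisson interval) at a fold of 12.03. Its endogenous peak, 21344295 to 21344876, had 13 tags (6.92 to 22.2) at a fold of 1.96, with the summits 90 bp apart. The region 43845789 to 43847590 on chromosome 12 stood at 11.51 in the biotin list, and its endogenous peak had 32 tags (21.9 to 45.2) with the summit 919 bp to the left. Also on chromosome 12, 96578518 to 96579684 stood at a fold of 9.14 in the biotin list and of 1.96 in the endogenous list, with the summits 9 bp apart. On chromosome 2, 149010454 to 149011537 had 74 biotin tags and 33 endogenous tags (22.7 to 46.3), the largest endogenous count of these 10. Over the 10 pairs, biotin folds ran from 8.38 to 12.24 and endogenous folds from 1.76 to 2.07.

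A region chosen after its values were seen differs from all of these. On chromosome 6, 103598846 to 103599478 had 369 biotin tags over 633 bp, 583 tags per kb, the densest isolated peak, yet a fold of 1.48, the lowest of any member. The endogenous list had 410 tags there, the most of any partner, with a fold of 2.29 and the summits 3 bp apart. It is the left neighbour, across 69.6 kb, of another member with an endogenous partner, 103669113 to 103670857, which had 252 biotin and 13 endogenous tags.

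Endogenous summits were denser around isolated peaks out to about 5 kb, well beyond the peaks themselves. Within 0.4 kb of the isolated summits there were 27.3 endogenous summits per Mb (21.9 to 33.7), and at 0.4 to 0.8 kb 42.0 per Mb (35.2 to 49.8). The density was 28.2 per Mb (22.7 to 34.7) at 0.8 to 1.2 kb, 18.8 (15.6 to 22.5) at 1.2 to 2 kb and 15.3 (13.4 to 17.3) at 2 to 4 kb. From 4 to 5 kb the 200 bp bins held 8 to 13 summits on the left and 3 to 9 on the right, against a mean of 2.29 per bin at 10 to 50 kb. The density was 4.47 per Mb (3.89 to 5.12) at 4 to 10 kb and 2.87 (2.69 to 3.06) at 10 to 50 kb, a distance at which the flanks of neighbouring members overlap and a summit can count more than once. All autosomal endogenous peaks come to 3.89 per Mb of listed length. The surroundings of isolated peaks thus held fewer endogenous peaks per Mb than the autosomes as a whole, and the stretch at 0.4 to 0.8 kb held 14.6 times the density of those surroundings. The 675 endogenous summits within 4 kb belonged to 606 members, and no member had more than 3. An endogenous peak within 5 kb of the peak's edges was found for 690 members, 17.3% (16.1 to 18.5), against 123 to 208 after the 6 shifts of 20 to 100 kb.

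**Figure D5:**
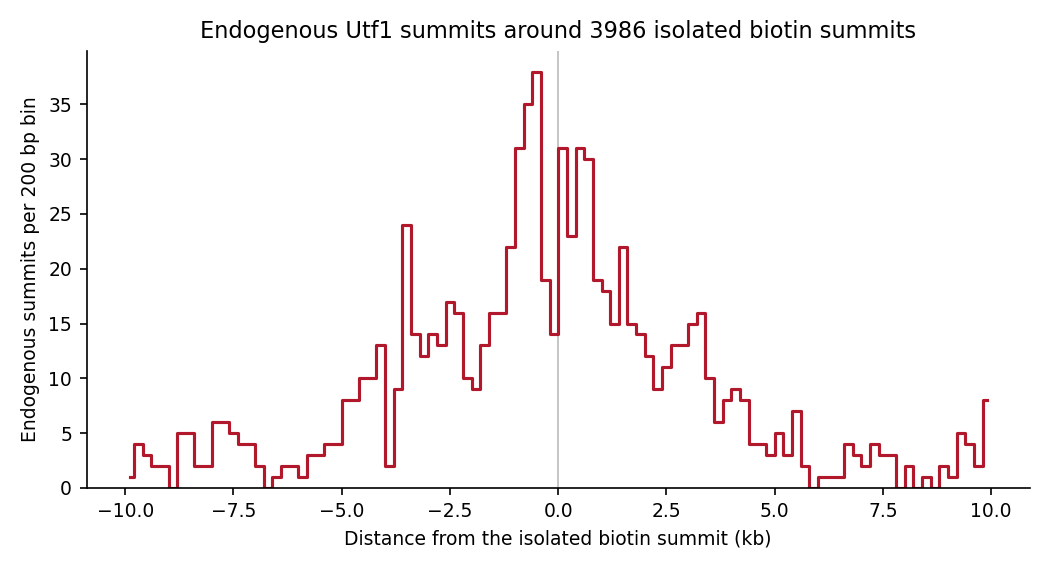
Number of endogenous Utf1 summits in each 200 bp bin (y axis) by distance in kb from the summits of the 3986 isolated biotin peaks (x axis, 0 at the biotin summit). Counts are highest on the left at 0.4 to 0.8 kb, with 38 and 35 per bin against 14 and 19 nearer the summit, while on the right the bin at the summit and that at 0.4 to 0.6 kb both hold 31; counts reach the level of the surroundings beyond about 5 kb.

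Taking both sides together, endogenous summits were more frequent at 0.4 to 0.8 kb from the biotin summit than nearer to it. There were 87 within 0.4 kb and 134 at 0.4 to 0.8 kb, in stretches of equal length, a ratio of 0.649 (0.490 to 0.857). In all groups chromatin was sheared to 200 to 700 bp and library sizes were 300 to 600 bp, lengths similar to this offset. Whether the offset comes from fragment length was not tested. The deficit near the summit was seen on the left, where the 200 bp bins held 14 and 19 within 0.4 kb and 38 and 35 beyond it. On the right they held 31 and 23 within 0.4 kb and 31 and 30 beyond it. The 9129 biotin peaks with gaps of 20 to 50 kb had the same order, with 150 endogenous summits within 0.4 kb and 207 at 0.4 to 0.8 kb, so it is not particular to isolated peaks. Of the 259 overlapping pairs, the endogenous summit lay to the left in 129, to the right in 129 and at the same position in 1, and 118 pairs had summits 400 to 800 bp apart. The median distance was 540 bp (interquartile range 300 to 756), and 102 of the endogenous summits lay outside the biotin peak. Summits within 250 bp made up 56 pairs, 21.6% (16.8 to 27.1), against 27.3% (21.2 to 34.0) of the 198 pairs formed by all 8 shifts together, so the intervals overlap. For gaps over 100 kb only 9 of 79 pairs lay that close, 11.4% (5.34 to 20.5), and the median distance was 580 bp. In the highest tercile by fold the density at 0.4 to 0.8 kb was 60.2 per Mb (46.4 to 76.9), against 33.9 per Mb (23.7 to 46.9) in the lowest tercile. At 10 to 50 kb these terciles had 2.56 and 2.96 per Mb.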

How the data were processed

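The deposited files are 2 peak lists, called per library and not on pooled samples. Per the file headers they give tags as whole-number counts per peak, a listed strength of 10 times −log10 p (a score), fold enrichment as a linear ratio, the false discovery rate in percent, width and summit position. Per the submitters' processing notes the build is mm9 and BWA 0.5.7 and R 2.15.2 were used, with no roles given. The sources used here do not name the peak caller, its settings or its control. Tag counts are not scaled for depth.

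Gaps were measured between the edges of neighbouring biotin peaks. Overlaps were counted at the listed positions and after moving the biotin peaks by 10, 20, 50 and 100 kb to either side. Shares carry Clopper-Pearson, differences Newcombe and counts exact Poisson intervals. Neighbouring peaks are not independent, and PCR copies of a molecule cannot be told from separate molecules. Named regions were the 10 members with the largest fold, the 10 with the largest nearer gap, the 10 overlapping ones with the best summed ranks by fold, those over 1000 tags, and 3 on either side of the threshold. Members, settings and rules were chosen with earlier results of these data known. Overlap and gap calculations were tested on simulated data. Calculations ran in Python 3.11.15 with scipy 1.17.1, numpy 2.4.6 and pandas 2.3.3, and figures in matplotlib 3.10.9. Positions relative to genes were planned but not analysed here, since the reference at hand is of another build.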

Additional observations from a re-analysis of the deposited data

How the results depend on the processing

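Of 116 alternative values for 11 results under 19 settings, 68 lay inside the interval of the reported value (for the number of members, within 1.5 times it), 2 reversed and 46 otherwise lay outside it. With an isolation distance of 20 kb there were 13115 members, 8.77% of autosomal biotin peaks, with a fold ratio to the other peaks of 1.14, an overlap of 5.04%, a difference of 4.22 points and a shift ratio of 6.50. With 100 kb there were 991 members, 0.663%, with a fold ratio of 1.25, an overlap of 7.97%, a difference of 6.83 points, a shift ratio of 17.1, 11.4% of summits within 250 bp and a ratio of 0.340 between summits within 400 bp and at 400 to 800 bp. Gaps between summits gave 2.77% isolated, where edges gave 2.67%, and adding chromosome X gave 2.98%. Merging peaks up to 1000 bp apart gave 3.72% isolated, a width ratio of 0.860, a fold ratio of 1.08, and a tag ratio of 0.894 in place of 1.06, a reversal. Each merged site took the summed tags, the full span and the highest fold of its peaks, so the merging itself changes these ratios. Judged within the stronger 50% by fold, 6.70% were isolated, the tag ratio reversed to 0.939, the width ratio was 0.846, the fold ratio 1.12 and the shift ratio 8.58. Without the widest 10% the values were 2.88% isolated, a tag ratio of 1.13 and a width ratio of 0.983. For an overlap of 50% of the shorter peak, summits within 250 bp and peaks within 1000 bp, the overlap was 4.01, 1.40 and 10.04% and the difference 3.31, 1.13 and 8.25 points; the last 2 gave shift ratios of 8.30 and 8.42. The difference between the terciles by fold was 4.60 points with summits within 1000 bp and 0.829 within 250 bp. With endogenous peaks of over 15 tags only, the overlap was 2.06%, the difference 1.70 points, the shift ratio 12.9, summits within 250 bp 15.9%, the ratio of summit counts 0.432 and the difference between terciles 2.34 points. With the stronger 50% of endogenous peaks these were 3.01%, 2.48 points, a shift ratio of 8.14 and 2.34 points. Beyond the changes that the settings make in list length and in the values of merged sites, the cause was not tested. No paired analysis was possible because each group has 1 library, and none could be left out. Since library depth is unknown, the number of isolated peaks does not measure occupied sites.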

Other observations

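Chromosome X lies outside the rule but was measured in the same way. It had fewer biotin peaks than any autosome, where the lowest count was 4106, so the rule itself bears on its share of isolated peaks. Of its 2539 biotin peaks, 540 had no other biotin peak within 50 kb, 21.3% (19.7 to 22.9), which is 3.24 per Mb of listed length and more than on any autosome. These peaks had medians of 72.5 tags, 1109 bp and a fold of 5.52. An endogenous peak overlapped 31 of them, 5.74% (3.93 to 8.05), against 0 to 4 after the 8 shifts.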
